A study of Mus musculus with 4 samples.

Results

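The C-type lectin genes of the array, the CD209 cluster among them, were examined in immature granulocytes that lacked miR-223. They were taken by the gene name in the scanner files: names that begin with Cd209, names that begin with Clec and a number (Clec11a left out), and Cd207, Cd302, Cd69, Cd93 and Olr1. This gave 38 of 27630 genes and 52 of 41174 probes. Beyond the names, the family was chosen by its log2 differences between KO and WT on these same arrays, so its values are a description, and the counts below are not independent support for any direction.

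The groups were miR-223 KO (2 arrays) and wild type (WT, 2 arrays), both from male C57BL/6 mice. The ages of the mice and the way the miR-223 allele was deleted are not given in the sources used here. The cells, bone marrow precursors of neutrophils, had been sorted, and their total RNA was measured with Cy3 label on 1-colour arrays. Whether replicates of a genotype were separate animals is not given, so a p-value here reflects only how far these samples spread, possibly for technical reasons.

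C-type lectins share a fold that was first described in proteins that bind sugars with the help of calcium, and many members bind proteins or lipids instead. On myeloid cells the activating receptors signal through the kinase Syk, often by way of the adaptors Fcer1g or Tyrobp, while inhibitory receptors recruit phosphatases. The mouse Cd209 genes arose by duplication and are related to human DC-SIGN, a dendritic cell receptor for mannose and fucose. miR-223 is a microRNA abundant in myeloid cells that lowers transcripts carrying a match to its seed.

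The sequences below are those on which the reading of the probes turns. The first is the mature miRNA absent from the KO cells (RefSeq, GRCm38.p6, chrX:96242884-96242905, plus strand), with its seed, bases 2 to 8, in capitals.
mmu-miR-223-3p: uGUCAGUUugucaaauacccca
The next are the first 30 bases of the probes for Cd209f, which gave the widest difference of the family. They lie on the minus strand of mm9 at chr8:4102899-4102958 and chr8:4102793-4102827.
Cd209f A_51_P196663: tctgtaggtgatttcagttccacaaatcct
Cd209f A_51_P287436: agcaaagaatcatgaggaggaggtccatct
The last are 30 aligned bases of the probes for Clec2i (mm9 chr6:128846546-128846605, plus strand) and Clec2g (chr6:128933086-128933145, plus strand), with the base that differs in capitals. Coordinates are those the files give for the whole probe.
Clec2i A_51_P182311: caagagactcttcTtagcctgttatctatg
Clec2g A_52_P232859: caagagactcttcCtagcctgttatctatg
These probes matched at 82.5% of 57 aligned bases, the 1 pair of 1309 between member genes at 80% or more over at least 40 bases. Whether either probe also binds the other gene's transcript was not tested. The complement of the seed, AACTGAC, was in 0 of 52 member probes and in 0.372% of all probes. Its last 6 bases, ACTGAC, which lie within it, were in 0 of 52 and in 1.41%. Probes were searched in the sense of the transcript only, and they cover a small stretch of each transcript.

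The 4 arrays shared 1 slide and 1 scan, and 59.6% to 62.9% of spots were well above background. Signals are given as scaled signal, the background-subtracted signal divided by the array's 75th percentile, and each probe is compared only with itself. All 14 measured granulocyte precursor markers, among them Mpo, Elane and Camp, were well above background on all 4 arrays; Cebpe and Ly6g were not on the array. At an unadjusted p under 0.05, 4 of them were higher in KO and 0 lower, against 11.8% and 12.0% of all genes. The 4 were Prtn3 (log2 difference, KO minus WT, 0.72), Ctsg (0.63), Elane (0.50) and Ms4a3 (0.31). Of the 14, 9 had a positive and 5 a negative difference, with a median of 0.09. Ltf (-0.44), S100a8 (-0.20) and S100a9 (-0.20) were lower on both KO arrays than on both WT arrays. Mpo had 0.05 with overlapping groups. The depth of an array has no read count, and the number of arrays limits the precision. Across arrays alone, the smallest two-sided p that an exact permutation test of 2 against 2 can give is 0.333.

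Of the 38 members, 30 had a probe well above background on at least 2 arrays and 26 on all 4. No fold is given for the 8 others. Cd209c, Clec12b, Clec14a, Clec18a, Clec2e, Clec2h and Clec3a were well above background on 0 arrays, and Clec1a on 1, a WT array. Of the measured members, 4 were not above background throughout: Cd209f, Clec4a1, Cd209e and Clec4f.

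By limma with Benjamini-Hochberg adjustment over 16978 genes, 0 members passed an adjusted p of 0.05, where 0% of all genes passed; the smallest adjusted p of any gene was 0.0838. At an unadjusted p under 0.05, 7 of 30 measured members were higher in KO, against 11.8% of all genes, and 4 were lower, against 12.0%. Clec4a1 among the higher and Cd209f among the lower were well above background only in the genotype where they were higher. Their place in these counts follows from that difference. With the filter on all 4 arrays, 6 members were higher and 3 lower, beside 4170 of 15620 genes in either direction. At 2-fold or more, 0 members were higher (1.40% of all genes) and 1 was lower, Cd209f (1.10%). Both KO arrays lay above both WT arrays for 13 members (28.0% of all genes) and below them for 5 (30.5%). The median log2 difference, KO minus WT, was 0.20 over the 30 measured members and -0.02 over all genes. A positive difference was found in 22 members and a negative one in 8, where 47.6% of all genes were positive. With normexp background correction the median over members was -0.48 and over all genes -0.15.

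**Figure D1:**
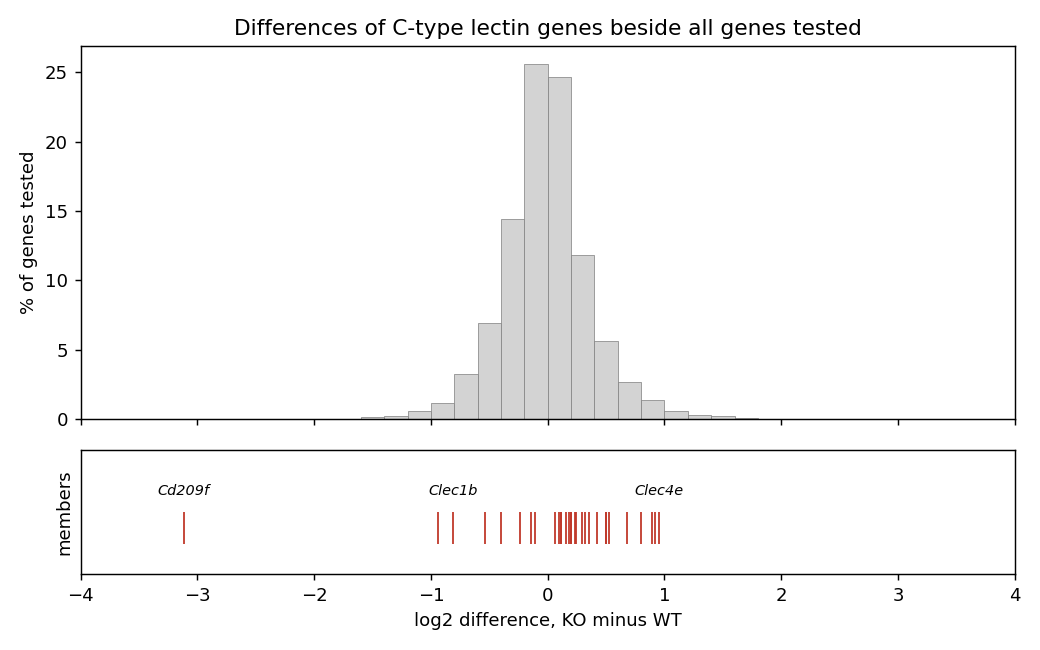
Histogram of the log2 difference, KO minus WT, over all 16978 genes in bins 0.2 wide, with a tick for each of the 30 measured C-type lectin genes; 1 gene lies outside the plotted range. Most ticks lie between -1 and 1, and the tick of Cd209f stands alone at -3.12.

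The CD209 cluster of chromosome 8 divided by gene. Cd209f had a scaled signal of 0.0121 and 0.0135 on the KO arrays, neither well above background, against 0.118 and 0.104 on the WT arrays, both well above it. At this Cd209f probe, the one used in the fit, the groups did not overlap. With the reported scaling, its signal in KO was at least 5.71-fold lower. That bound was set against the lowest signal still well above background on each KO array. The fitted log2 difference was -3.12 ± 0.12 (SE, n = 2 arrays per genotype; limma adjusted p = 0.0838). In RNA from a sorted population, fewer cells of a type and less RNA per cell cannot be told apart.

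The second Cd209f probe gave a smaller difference. Its log2 difference was -1.08, and it was well above background on 1 KO array and on both WT arrays. It had 0.0331 and 0.0169 in KO, against 0.0358 and 0.0701 in WT. That difference is smaller than the bound above, which therefore holds for the first probe and not for the gene. Cd209b, known as SIGN-R1, takes up bacterial polysaccharides in macrophages of the splenic marginal zone. Its scaled signal was 0.0288 and 0.0243 in KO, against 0.0400 and 0.0369 in WT, without overlap. The log2 difference of Cd209b was -0.54 ± 0.13 (limma adjusted p = 0.127). That rests on 1 probe near background, since its second probe was well above background on 0 arrays.

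Cd209e had 0.0233 and 0.0142 in KO, against 0.0280 and 0.0437 in WT, and was well above background on 1 KO and 2 WT arrays. Its groups did not overlap, with a log2 difference of -0.94 ± 0.36 (limma adjusted p = 0.225). The other measured genes of the cluster had overlapping groups. Cd209a, a receptor of dendritic cells, had 0.188 and 0.105 in KO, against 0.111 and 0.128 in WT (log2 difference 0.24 ± 0.32). Cd209d had 0.185 and 0.0717 in KO, against 0.0896 and 0.0739 in WT (log2 difference 0.50 ± 0.51), so that KO replicate 1 stood apart from the other 3 arrays.

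Of the 5 measured genes of the cluster, 2 were lower at an unadjusted p under 0.05, against 12.0% of all genes, and 0 were higher, against 11.8%. Among the 2 is Cd209f, whose probe in the fit was well above background on the WT arrays alone, so its place there is no support.

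**Figure D2:**
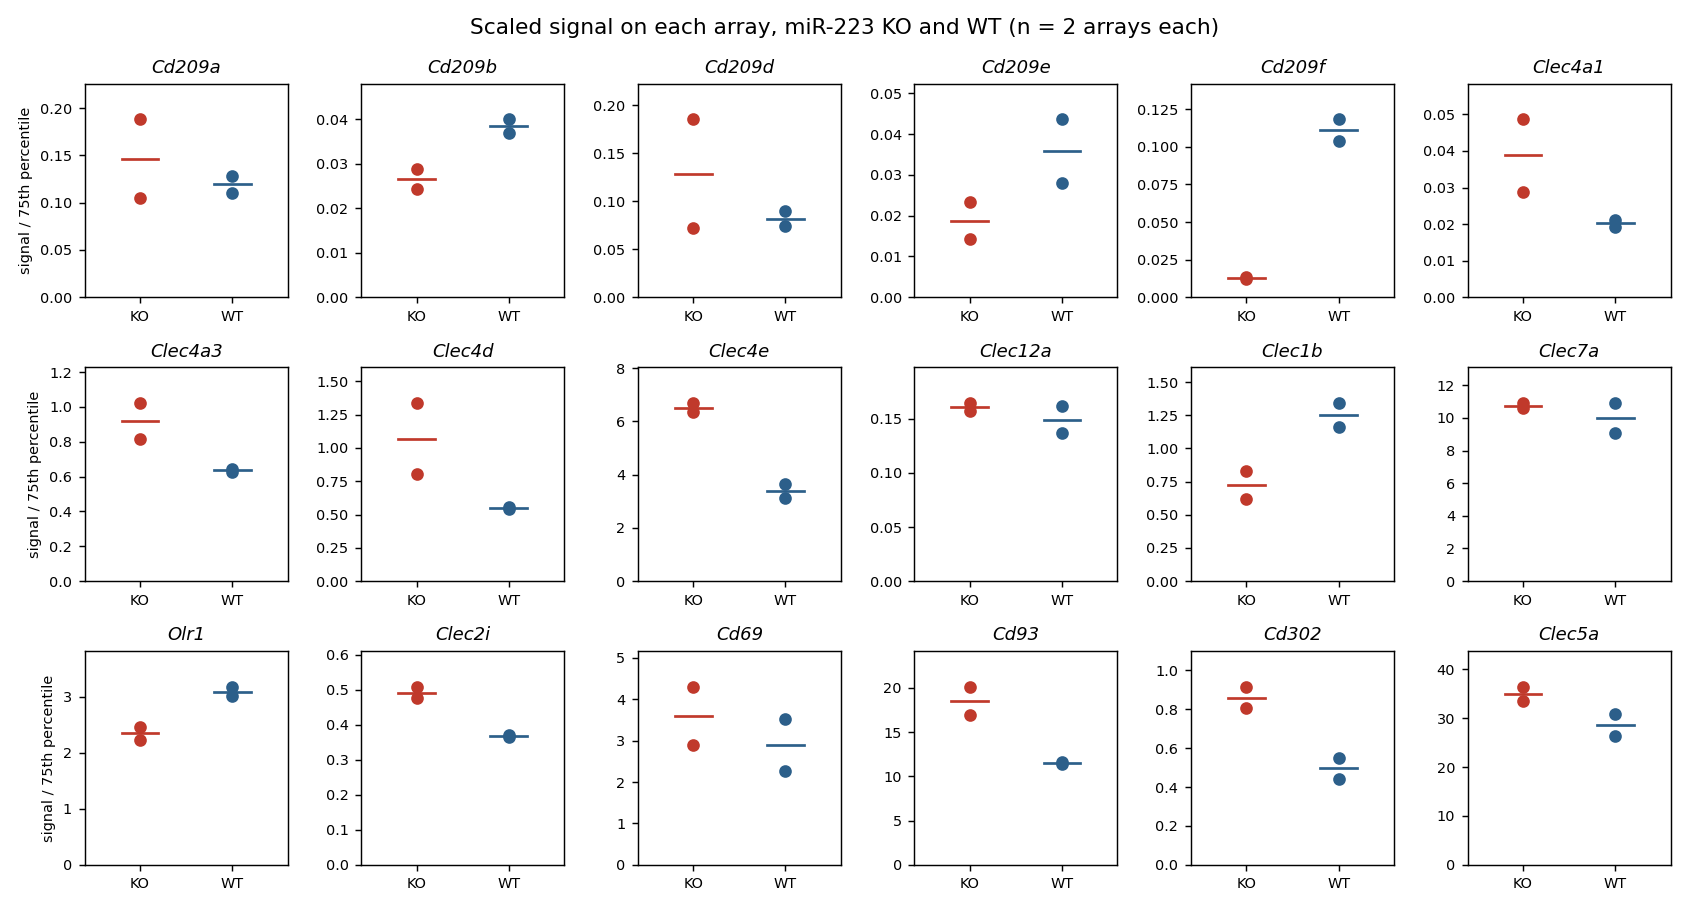
Scaled signal (array signal over its 75th percentile) of 18 C-type lectin genes on each array, KO left and WT right, with a line at each group's mean. Cd209f is near the bottom of its axis on both KO arrays, and Clec4e, Cd93 and Cd302 are higher on both KO arrays than on both WT arrays.

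A cluster of Clec4 genes on chromosome 6, apart from Clec4f on the same chromosome, encodes activating and inhibitory myeloid receptors. All 7 members in it were measured, and 6 had a positive difference, against 47.6% of all genes. Of the 7, 4 were higher at an unadjusted p under 0.05, against 11.8% of all genes, and the median was 0.52. Among the 4 is Clec4a1, which was well above background on the KO arrays alone, so its place there is no support. Clec4e encodes Mincle, which senses mycobacterial cord factor and signals through Fcer1g. Its scaled signal was 6.34 and 6.69 in KO, against 3.64 and 3.11 in WT. The groups did not overlap, and the log2 difference was 0.95 ± 0.12 (limma adjusted p = 0.0875).

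Clec4d, the partner of Mincle known as MCL, had 0.804 and 1.34 in KO, against 0.557 and 0.539 in WT. The groups did not overlap, although the KO arrays stood further apart from each other than the WT arrays did. Its log2 difference was 0.92 ± 0.28 (limma adjusted p = 0.172), and without KO replicate 2 it was 0.55.

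Clec4a1 and Clec4a3 belong to the family of the inhibitory receptor DCIR. Clec4a3 had 1.02 and 0.816 in KO, against 0.626 and 0.646 in WT, without overlap (log2 difference 0.52 ± 0.14, limma adjusted p = 0.151). Clec4a1 was well above background on both KO arrays, at 0.0487 and 0.0289, and on neither WT array, at 0.0192 and 0.0212. With the reported scaling it was at least 1.69-fold higher in KO (limma adjusted p = 0.187). That direction turned under both normexp settings (log2 difference -1.07 on all spots and -0.10 without control spots), and without KO replicate 1 the log2 difference was 0.51.

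The remaining genes of the cluster had smaller differences. Clec4a2, which encodes DCIR itself, had 115 and 121 in KO, against 106 and 93.5 in WT (log2 difference 0.25 ± 0.11), while its other 2 probes gave 0.16 and 0.01. The coordinates given for the probe with 0.16 span 64386 bases and do not reach those of the other Clec4a2 probes. Clec4b1 had a log2 difference of 0.20 ± 0.10. Clec4n encodes Dectin-2, a receptor for fungal mannans, and had a log2 difference of -0.11 ± 0.15 with overlapping groups.

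The neighbourhood of Dectin-1, also on chromosome 6, ran the other way in 2 of its 4 measured genes. Clec1b encodes CLEC-2, the podoplanin receptor of platelets, and had 0.617 and 0.828 in KO, against 1.34 and 1.17 in WT. The groups did not overlap (log2 difference -0.81 ± 0.19, limma adjusted p = 0.127). Olr1, the receptor for oxidised low-density lipoprotein, had 2.47 and 2.23 in KO, against 3.18 and 3.01 in WT, again without overlap (log2 difference -0.40 ± 0.10, limma adjusted p = 0.137).

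Clec7a encodes Dectin-1, the receptor for fungal beta-glucan, and had 10.6 and 10.9 in KO, against 10.9 and 9.05 in WT. Clec12a, an inhibitory receptor of myeloid cells, had 0.165 and 0.158 in KO, against 0.137 and 0.162 in WT. In both the groups overlapped, with log2 differences of 0.11 ± 0.13 for Clec7a and 0.11 ± 0.12 for Clec12a.

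The Clec2 genes include ligands of the NKR-P1 receptors of natural killer cells, and Cd69, an early activation antigen of leukocytes, lies beside them. Clec2i had 0.508 and 0.475 in KO, against 0.365 and 0.370 in WT, without overlap (log2 difference 0.42 ± 0.08, limma adjusted p = 0.115). Clec2g, whose probe resembles that of Clec2i as printed above, had a log2 difference of 0.19 ± 0.12. Cd69 had 4.30 and 2.90 in KO, against 3.54 and 2.27 in WT, and the groups overlapped (log2 difference 0.32 ± 0.32).

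Clec2d, ligand of an inhibitory NKR-P1 receptor, had a log2 difference of 0.36 ± 0.33 and Clec2l one of -0.14 ± 0.14, both with overlapping groups. Of the 5 measured genes of this group, only Clec2i had an unadjusted p under 0.05, where 11.8% of all genes were higher and 12.0% lower.

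Cd93, a relative of thrombomodulin found on early progenitors, myeloid cells and endothelium, had 20.1 and 17.0 in KO, against 11.7 and 11.4 in WT. The groups did not overlap, with a log2 difference of 0.68 ± 0.12 (limma adjusted p = 0.101), and its second probe gave 0.58. Cd302, an endocytic receptor of phagocytes, had 0.915 and 0.806 in KO, against 0.443 and 0.549 in WT, also without overlap (log2 difference 0.80 ± 0.15, limma adjusted p = 0.108).

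Clec5a encodes a myeloid receptor coupled to Tyrobp. It had 33.5 and 36.4 in KO, against 30.9 and 26.4 in WT, without overlap, with a log2 difference of 0.29 ± 0.12, and its other probes gave 0.20 and 0.30. Clec10a, a galactose-binding receptor of macrophages and dendritic cells, had a log2 difference of 0.50 ± 0.29, which was 0.14 without KO replicate 1 and 0.86 without KO replicate 2. Clec16a, a regulator of mitophagy, had 0.20 ± 0.10, and Clec3b, which encodes the plasma protein tetranectin, had -0.23 ± 0.17.

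Cd207, Clec4f and Clec4g, known from specialised resident cells, differed by less than their error, unlike Cd209b above. Cd207, the langerin of Langerhans cells, had a log2 difference of 0.06 ± 0.29. Clec4f, a receptor of Kupffer cells, had 0.16 ± 0.67, and Clec4g, of liver sinusoidal endothelium, had 0.10 ± 0.26. Both were near background, and the other probes of Clec4g were well above it on 0 arrays.

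**Figure D3:**
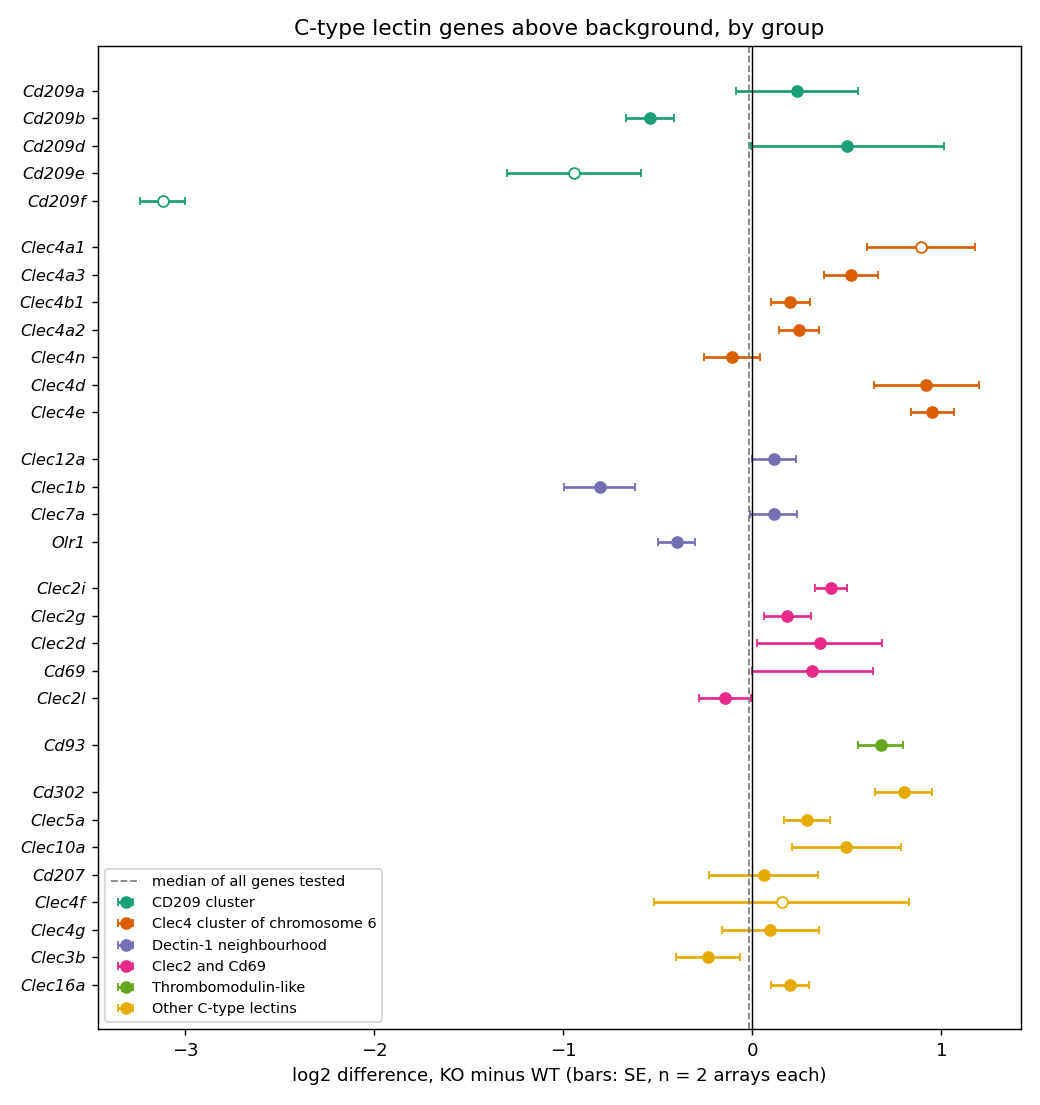
Log2 difference, KO minus WT, with its SE (n = 2 arrays per genotype) for the 30 measured members by group of related genes; open circles were not well above background on all 4 arrays, and the dashed line is the median of all genes. Cd209f lies at -3.12, Clec1b at -0.81, and Clec4e at 0.95.

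Of the genes through which C-type lectin receptors signal, 26 of 28 were measured, 14 with a positive and 12 with a negative difference, with a median of 0.01. At an unadjusted p under 0.05, 1 was higher, the kinase Src (log2 difference 1.36 ± 0.26, limma adjusted p = 0.112), and 0 were lower. Over all genes, 11.8% were higher and 12.0% lower. The adaptors Fcer1g (0.21 ± 0.08) and Tyrobp (0.19 ± 0.08) did not pass. Rel was not well above background, and Card9 was not on the array.

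Markers of other cell types were read in the same fit. Over all genes, 47.6% had a positive difference, and at an unadjusted p under 0.05, 11.8% were higher and 12.0% lower. The counts of markers below are to be read beside these shares. All 12 monocyte markers had a positive difference, 8 at an unadjusted p under 0.05, with a median of 0.71. Their summed scaled signal was 741 and 662 in KO, against 627 and 623 in WT. Most of that sum was Ly6c2, at 593 and 529 in KO, against 547 and 545 in WT. Its groups overlapped, with a log2 difference of 0.04 ± 0.10. Ccr2, a chemokine receptor of inflammatory monocytes, had a log2 difference of 0.82 ± 0.08.

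Conventional dendritic cell markers were positive in 9 of 11, with 3 higher at an unadjusted p under 0.05 and 0 lower. The 3 were H2-Ab1 (0.65), H2-Aa (0.69) and H2-Eb1 (0.61). Flt3 had 0.15 ± 0.38, and Zbtb46 (-0.07) and Xcr1 (-0.30) were negative. The sums were 172 and 153 in KO, against 124 and 124 in WT. Cd24a was the largest part, at 81.1 and 80.9 in KO, against 74.0 and 65.9 in WT. Of 7 measured eosinophil markers, 6 were higher and 1, the chemokine receptor Ccr3 (-0.62), was lower at an unadjusted p under 0.05, with sums of 20.4 and 18.7 in KO, against 13.4 and 11.5 in WT. Il5ra and Gata1, also on that list, were not well above background.

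Resident macrophage markers divided. Of 14 measured, 2 were higher and 3 lower at an unadjusted p under 0.05, with sums of 32.3 and 31.7 in KO, against 28.8 and 28.9 in WT. The differences were positive for 5 and negative for 9, with a median of -0.07. The 3 lower were Cd163 (-0.87 ± 0.15), Spic (-0.95 ± 0.19) and Mertk (-0.80 ± 0.17). The 2 higher were Adgre1 (0.97 ± 0.12) and Vcam1 (0.47 ± 0.12). Among those with overlapping groups were Siglec1 (0.01), C1qa (-0.03), Slc40a1 (-0.07), Axl (-0.08) and Mrc1 (0.08). Timd4 was not well above background.

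Megakaryocyte markers were positive in 5 of 5 measured, 1 at an unadjusted p under 0.05, Gp9 (1.19 ± 0.11). The groups overlapped for Treml1 (0.77), Pf4 (0.65), Itga2b (0.17) and Gp1bb (0.05). The sums of megakaryocyte markers were 2.26 and 2.84 in KO, against 1.38 and 1.57 in WT. Gp1ba, Gp5, Gp6 and Ppbp were among those not well above background. The platelet receptor Clec1b had -0.81, and Selp, the P-selectin of platelets and endothelium, had -0.86. The part of these markers in the members' differences was not tested.

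The calls depended on how limma modelled the spread. With a prior that follows signal intensity, 6 members passed an adjusted p of 0.05, namely Cd209f (limma adjusted p = 0.00626), Clec4e (0.00693), Cd93 (0.0146), Cd302 (0.0249), Clec1b (0.0336) and Olr1 (0.0408), beside 1627 of all genes. Across 15 alternatives at most, 16 of the 30 members kept their direction. Among them were 9 of the 11 with an unadjusted p under 0.05, all but Clec2i and Clec4a1. Several alternatives could not turn a direction. The intensity trend and the replicate block leave each difference unchanged. Leaving out 1 array cannot turn it where the groups do not overlap, as in all 11. A direction kept there is no support, and the share over all genes was not counted.

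**Figure D4:**
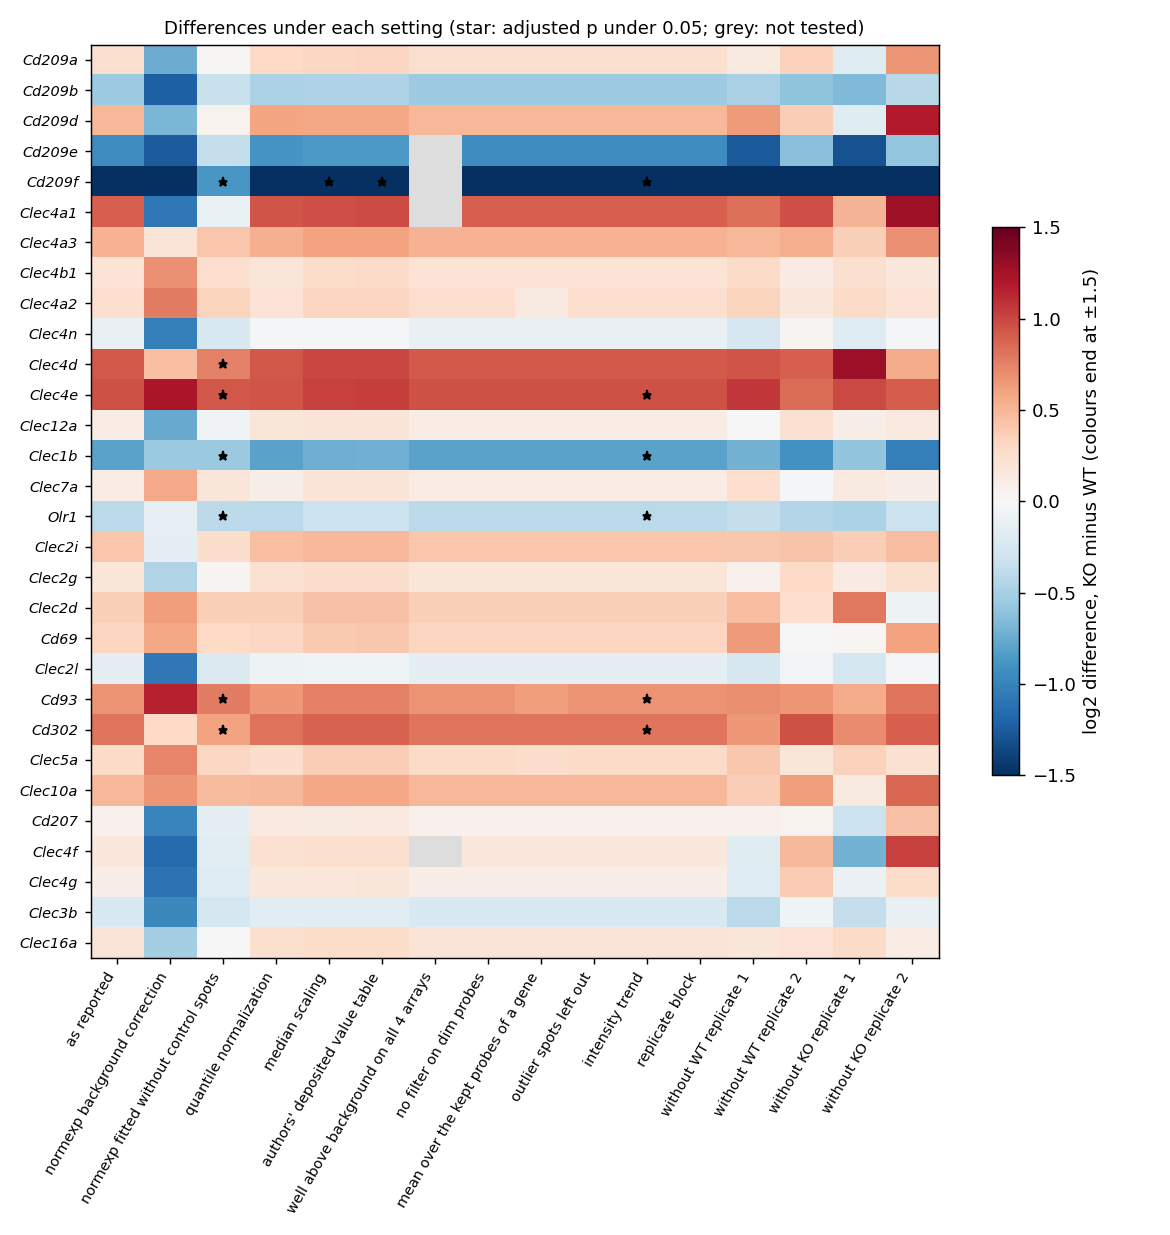
Log2 difference, KO minus WT, of each measured member (rows) as reported and under each alternative (columns); a star marks a limma adjusted p under 0.05, grey was not tested, and the colours end at 1.5 in each direction. Cd209f is negative in every column where it was tested, and Clec4a1 turns negative in both normexp columns.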

How the data were processed

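Per the file headers, Agilent Feature Extraction 10.5.1.1 made the deposited intensity of each spot by subtracting background and detrending within the array, with no scaling between arrays; probes are annotated on mm9. The authors also deposited log2 values, which track the processed signal up to 1 constant per array (read from the data), and these served as an alternative. The members and lists were chosen with earlier results of these data known.

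Log2 processed signals had the array's 75th percentile over non-control spots subtracted, and spots of a probe were averaged. Probes had to be well above background on 2 or more of the 4 arrays, and the brightest probe stood for a gene. KO and WT were compared with limma 3.58.1 in R 4.3.3 (lmFit, eBayes, Benjamini-Hochberg over 16978 genes, no replicate block), and the procedure was tested on simulated data. With 2 arrays against 2, each test borrows its spread from all genes (1.83 prior degrees of freedom). Of all 41174 probes, 26933 were named through their accession in RefSeq (GRCm38.p6), 5570 by a current symbol and 894 by a synonym there, and 7777 kept the file's name; members were taken by the file's name. Every member was accounted for. Values per array were given for members with an unadjusted p under 0.05 or a 2-fold difference. They were also given for the Cd209 genes, Clec4e, Clec4d, Clec7a, Clec5a, Clec12a and Cd69. Up to 4 genes with the smallest p were named per list, and others where they differ from those or weigh most in a sum. Alternatives changed the background correction, scaling, filter, probe rule, prior, block and arrays used.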

Additional observations from a re-analysis of the deposited data

How the results depend on the processing

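Against 0 genes and 0 members called by limma (4043 genes at an unadjusted p under 0.05), normexp fitted without control spots called 1885 genes and 7 members, quantile normalization 4 genes, median scaling 5 genes and 1 member, the authors' deposited log2 values 61 genes and 1 member, the filter on all 4 arrays 125 genes, and the intensity trend 1627 genes and 6 members. Normexp on all spots left 245 genes, 2 members higher and 1 lower at an unadjusted p under 0.05, with a member median of -0.48 and a median of -0.15 over all genes. On WT replicate 1, 1 control spot has a local background of 80750, where other spots reach 26.5. Without control spots the member median was 0.029. Leaving out 1 array gave 2484 to 3400 genes at an unadjusted p under 0.05, 3 to 11 members higher, 1 to 5 lower and medians of 0.10 to 0.24. Without WT replicate 1, 3 members were higher and 1 lower; without WT replicate 2, 4 were higher; without KO replicate 2, 11 were higher. Under normexp the sign turned for Cd207 (-0.99), Cd209a (-0.75), Cd209d (-0.69), Clec12a (-0.76), Clec16a (-0.51), Clec2g (-0.46), Clec2i (-0.14), Clec4a1 (-1.07), Clec4f (-1.15) and Clec4g (-1.11), and without control spots for Cd207 (-0.14), Clec12a (-0.054), Clec16a (-0.0098), Clec4a1 (-0.10), Clec4f (-0.17) and Clec4g (-0.20). Leaving out 1 array turned the sign within -0.32 to 0.44 for Cd207, -0.19 to 0.66 for Cd209a, -0.18 to 1.19 for Cd209d, -0.0031 to 0.64 for Cd69, -0.0034 to 0.23 for Clec12a, -0.075 to 0.79 for Clec2d, -0.71 to 1.02 for Clec4f, -0.19 to 0.38 for Clec4g, -0.26 to 0.047 for Clec4n and -0.022 to 0.25 for Clec7a. Causes beyond these values were not tested. Cd209f ranged from -3.21 to -0.87 over its alternatives. Whether the shared replicate numbers pair the samples is not given. Deviations of KO replicate 1 and WT replicate 1 from their group means had a correlation of 0.04 across genes, which cannot exclude pairing. The replicate block gave 0 genes called, 3780 at an unadjusted p under 0.05, 8 members higher and 4 lower, and a median of 0.20. Signal near background limits Cd209b, Cd209e, Cd209f, Clec2l, Clec4a1, Clec4f and Clec4g.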

Other observations

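Genes with a C-type lectin domain outside the family as chosen were also read. Of 40 such genes on a list, 23 were measured, 14 with a positive and 9 with a negative difference and a median of 0.12. At an unadjusted p under 0.05, 10 were higher and 1 lower, against 11.8% and 12.0% of all genes. None passed the limma adjusted p. Mgl2, a galactose-binding relative of Clec10a, had a scaled signal of 2.98 and 2.71 in KO, against 1.47 and 1.36 in WT, without overlap (log2 difference 1.01 ± 0.10, limma adjusted p = 0.0854). Selp, the P-selectin of platelets and endothelium, had 0.138 and 0.133 in KO, against 0.265 and 0.228 in WT, also without overlap (log2 difference -0.86 ± 0.11, limma adjusted p = 0.0875). Klra2 and Layn had log2 differences of 0.65 ± 0.08 and 0.79 ± 0.11. A further probe, whose name in the files does not begin with Clec, has the current symbol Clec2m and a log2 difference of -0.17.

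The counts that follow are to be read beside the shares over all genes. Of those, 47.6% had a positive difference, and at an unadjusted p under 0.05, 11.8% were higher and 12.0% lower. All 6 measured natural killer cell markers had a negative difference, 0 of them at an unadjusted p under 0.05. Of 9 T cell markers, 7 were negative, and 2 were lower and 0 higher at an unadjusted p under 0.05. Cd3d, a chain of the T cell receptor complex, had 0.299 and 0.301 in KO, against 0.801 and 0.820 in WT (log2 difference -1.43 ± 0.08, limma adjusted p = 0.0838). Cd247 had -0.64 ± 0.23. The groups overlapped for Cd3e (-0.22), Cd3g (0.37) and Thy1 (0.53). Of 9 B cell markers, 7 were negative, 2 of them at an unadjusted p under 0.05, and Cd79b was higher at that threshold (log2 difference 0.46). Mature neutrophil markers were positive in 8 of 11 (4 higher and 1 lower at an unadjusted p under 0.05), plasmacytoid dendritic cell markers in 5 of 9 (2 higher, 0 lower) and endothelial markers in 6 of 8 (1 higher, 0 lower).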
